A study of Mus musculus with 6 samples.

Results

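Glycolysis and the hypoxia response share much of their control, and 35 mouse genes of both were followed in RNA-seq libraries of primary smooth muscle cells from the oviduct. The genes were the glycolytic enzymes with their transporters and regulators (22 genes) and the hypoxia-inducible factor (HIF) system with genes that respond to it (13 genes). They were taken from the count table by their symbols, and 36 of its 54232 rows carried 1 of those symbols. The extra row was a second model named Aldoa (ENSMUSG00000114515.2), with 7 to 18 counts per library, which was kept apart from Aldoa itself. All 35 genes passed the filter on low counts, with 25 to 24224 counts per library.

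The cells came from females aged 8 to 12 weeks on day 2 of pregnancy, labelled WT (n = 3 libraries) or Pbrm1 cKO (n = 3 libraries). Pbrm1 is part of a chromatin remodeler of the SWI/SNF family, and in the cKO it was removed by a Cre recombinase made from the progesterone receptor locus, so any cell type of the digest that has used that locus could carry the deletion. The labels name the controls WT, while a legend of the study names floxed mice and calls the 3 replicates biological. Neither states how many animals a library stands for, so the p-values below measure the spread between these libraries. Oviducts were digested for 30 to 45 min with trypsin, collagenase and dispase, and the cells were plated for 4 h in medium with 12% serum and for 2 h in medium with 10% serum before RNA was taken. The labels give no oxygen level for the culture. Libraries held 15390818 to 18947947 counts. Pbrm1 was at 170.1, 183 and 172 CPM in WT and 43.5, 50.7 and 42.7 CPM in cKO (counts scaled to a common library total), a cKO mean of 26.0% of WT, counted over all exons of the gene and not over the deleted part alone.

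As background, glycolysis breaks glucose down to pyruvate in the cytosol and yields ATP without oxygen. Cells short of oxygen rely on it and turn the pyruvate into lactate. HIF is a pair of a labile alpha subunit (Hif1a or Epas1) and a stable beta subunit. When oxygen is present, prolyl hydroxylases (the Egln genes) mark the alpha subunit, the Vhl protein binds the mark and the subunit is degraded. When oxygen is short, HIF persists and raises the transcription of glucose transporters, most glycolytic enzymes, angiogenic peptides and genes of mitophagy, and its activity is therefore not read from the RNA level of its subunits.

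Of the 35 genes, 26 passed an edgeR adjusted p of 0.05 in cKO against WT (74.3%, beside 43.7% of all 15376 genes tested). In cKO, 24 were higher, beside 21.9% of all genes tested, and 2 were lower, Hif1a and Pfkfb3, beside 21.8%. Gapdh and Eno1 are among the genes that were higher, but with the counts of their near-identical copies added, the Gapdh sum was lower and the Eno1 sum was not called, which gave 22 higher and 3 lower genes. Reads that fit several loci are missing from both kinds of count. The median log2 fold change of the 35 genes was 0.32, beside 0.002 for all genes tested. Among the glycolytic genes and their regulators, 14 of 22 were higher and 1 was lower (median log2 fold change 0.23). In the HIF system and its response, 10 of 13 were higher and 1 was lower, with a median of 0.47. Most increases were small: the cKO mean of the 24 higher genes lay between 111% and 234% of the WT mean. Counted without copies, 4 genes (Pdk1, Bnip3, Ankrd37 and P4ha2) moved by more than 1 on the log2 scale, as did 6.60% of all genes tested. For 26 of the 35 genes all cKO libraries lay on 1 side of all WT libraries, above in 23 and below in 3, beside 53.5% of all genes tested.

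**Figure D1:**
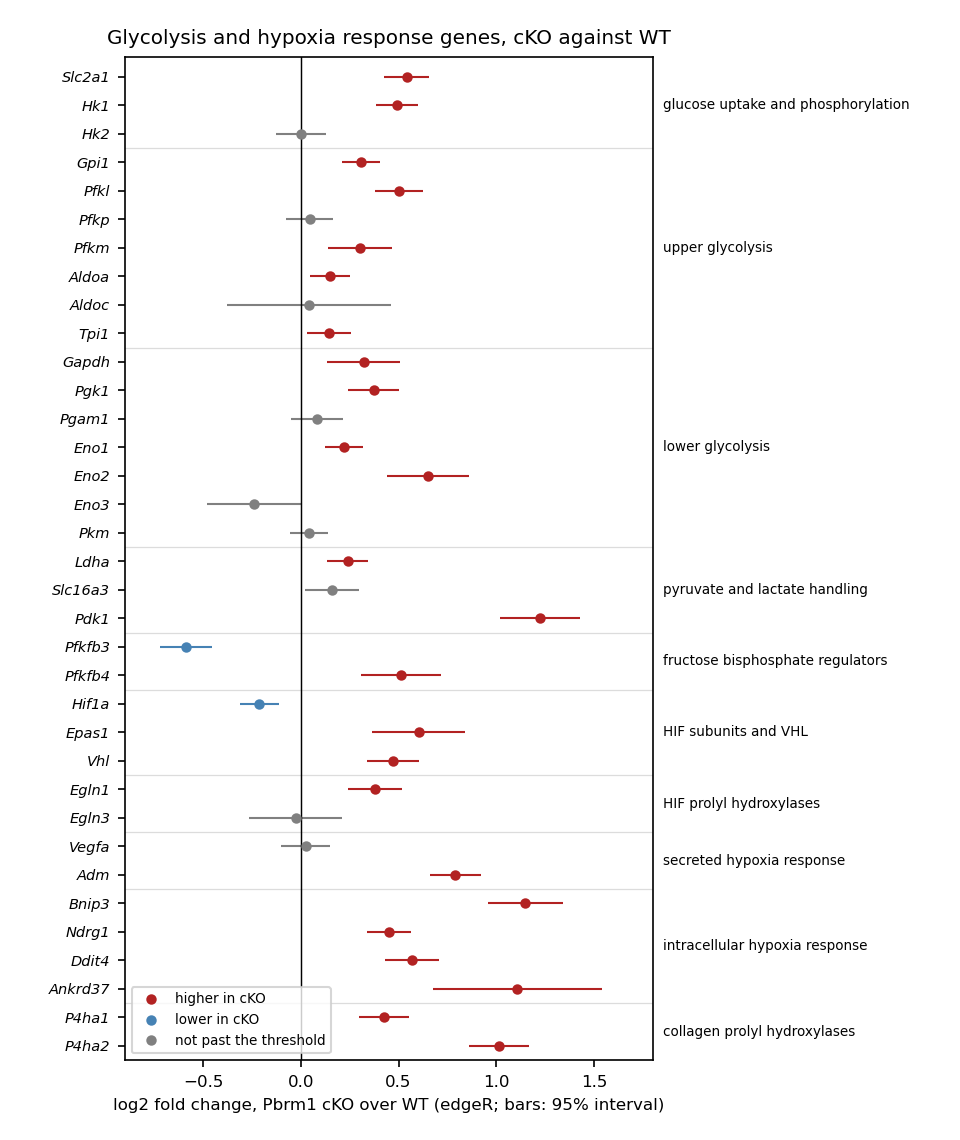
Log2 fold change of each of the 35 genes between Pbrm1 cKO and WT (horizontal axis; points, edgeR estimate; bars, 95% interval; n = 3 libraries per group), grouped by role from top to bottom. Red points were higher in cKO (24 genes), blue points lower (Hif1a and Pfkfb3) and grey points did not pass the threshold (9 genes); the points farthest to the right are Pdk1, Bnip3, Ankrd37 and P4ha2. Gapdh is drawn without its copies, with which the sum is at -1.29.

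The cKO libraries did not stand equally far from WT. For 20 of the 24 genes that were higher, replicate 2 was the lowest of the cKO libraries, as it was for 58.2% of the 3373 genes called higher in the whole table. The 35 genes together took 0.7505%, 0.755% and 0.763% of the counts in WT and 0.902%, 0.824% and 0.913% in cKO. Replicate 2 thus had the smallest share of the cKO libraries, and the groups did not overlap. Mitochondrial genes took 7.95%, 8.24% and 8.08% of the counts in WT and 6.88%, 7.81% and 7.08% in cKO, again with no overlap and with cKO replicate 2 nearest to WT, and their part in the result was not tested. Without cKO replicate 2, 27 of the 35 genes were called, beside 7054 genes of the whole table. Without cKO replicate 1 both counts moved the other way, to 23 and 5547, from 26 and 6723 with all libraries.

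Markers of the cell types that such a digest can hold also differed between the groups. Their counts stand beside 21.9% of all genes tested that were higher in cKO and 21.8% that were lower. Smooth muscle markers such as Acta2 and Myh11 were present in every library, at a summed level of 3922 to 4013 CPM in WT and 5026 to 5704 CPM in cKO, and 7 of the 11 were higher in cKO and 1 was lower. Leukocyte markers summed to 780 to 835 CPM in WT and 1184 to 1273 CPM in cKO (11 of 12 higher), fibroblast markers to 1725 to 1736 and 2824 to 3054 CPM (8 of 11 tested higher, 2 lower) and epithelial markers to 1156 to 1255 and 1381 to 1540 CPM (7 of 12 higher, 1 lower). Endothelial markers summed to 387 to 407 CPM in WT and 321 to 334 CPM in cKO (2 of 10 higher, 1 lower), mesothelial markers to 186 to 191 and 157 to 163 CPM (1 of 7 tested higher, 3 lower) and red cell markers to 1.93 to 2.13 and 0.0643 to 0.281 CPM (1 of 1 tested lower). Genes that respond to tissue dissociation, such as Fos and Egr1, summed to 656 to 744 CPM in WT and 869 to 977 CPM in cKO (8 of 12 higher, 1 lower). Of the endothelial markers 30% were called, below the 43.7% of all genes tested, and their median log2 fold change was -0.03. No marker was at 0 in all libraries. In these bulk samples, fewer cells of a type and less RNA per cell cannot be told apart, and the part of these shifts in the results below was not tested.

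The first steps take glucose into the cell and trap it there. Slc2a1, the transporter GLUT1, was at 189, 184 and 190.4 CPM in WT and at 294, 253 and 273 CPM in cKO. Every cKO library lay above every WT library, with a log2 fold change of 0.54 (SE 0.053, edgeR adjusted p = 3.09e-06). Hk1, the hexokinase of most tissues, went from 119.6, 119 and 109 CPM to 169, 163 and 157 CPM, again with no overlap (log2 fold change 0.49, SE 0.05, edgeR adjusted p = 3.81e-06). Hk2, the hexokinase that insulin and HIF induce, lay between 172 and 199.5 CPM in WT and between 179 and 196 CPM in cKO. Its log2 fold change was 0.002 with a 95% interval of -0.13 to 0.13, and the cKO range lay within the WT range.

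The upper part of the pathway turns glucose 6-phosphate into triose phosphates. In cKO, 5 of its 7 genes were higher, beside 21.9% of all genes tested. Gpi1, the isomerase, was at 316, 326 and 315 CPM in WT and 412, 384 and 388 CPM in cKO (log2 fold change 0.31, SE 0.044, edgeR adjusted p = 8.49e-05). Pfkl, the liver-type phosphofructokinase, rose from 208, 196 and 198 CPM to 295, 258 and 300.3 CPM (log2 fold change 0.50, SE 0.057, edgeR adjusted p = 1.05e-05). It was the largest change among the enzymes of the upper part. The muscle type, Pfkm, rose from 19.1, 17.5 and 18.97 CPM to 21.7, 24.2 and 22.6 CPM (log2 fold change 0.30, SE 0.077, edgeR adjusted p = 0.0059), while the platelet type, Pfkp, overlapped between the groups at 79.1 to 90.5 CPM over all 6 libraries (log2 fold change 0.04, 95% interval -0.07 to 0.16). The 3 cKO libraries lay above all WT libraries for Gpi1, Pfkl and Pfkm. On 10.2% of its exon bases Pfkm overlaps the gene model Gm26513 on the same strand, as Pkm overlaps Gm49759 on 15.3% and Hif1a overlaps Gm49321 on 2.51%, and reads there belong to no single gene.

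Aldoa, the main aldolase, was among the most abundant of the 35 genes, at 1044, 1056 and 1068 CPM in WT and 1183, 1099 and 1227 CPM in cKO. The groups did not overlap, but the change was small (log2 fold change 0.15, SE 0.047, edgeR adjusted p = 0.0221), and the call was lost in 5 of the 6 fits without 1 library, with adjusted p-values up to 0.0939. Tpi1, the triose phosphate isomerase, was at 383, 379 and 393 CPM in WT and 437, 392 and 448 CPM in cKO. Here cKO replicate 2 lay below WT replicate 3 (log2 fold change 0.14, SE 0.052, edgeR adjusted p = 0.0369), and the call was also lost in 5 of the 6 fits, with adjusted p-values up to 0.139. For both genes the call was kept without cKO replicate 2. Aldoc, a brain-type aldolase, was low at 1.82 to 2.07 CPM in all libraries (log2 fold change 0.04, 95% interval -0.38 to 0.46).

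In the lower part, which makes ATP and pyruvate, 4 of 7 genes were higher in cKO as counted, beside 21.9% of all genes tested. With copies summed, Gapdh was lower and Eno1 was not called. Pgk1, the X-linked phosphoglycerate kinase, was at 173, 172 and 185 CPM in WT and 236, 206 and 245 CPM in cKO (log2 fold change 0.37, SE 0.061, edgeR adjusted p = 0.000245). Eno1, the enolase of most tissues, rose from 484, 506 and 491 CPM to 600.1, 549.6 and 578 CPM (log2 fold change 0.22, SE 0.046, edgeR adjusted p = 0.00141), and Eno2, the neuronal enolase, from 8.51, 7.97 and 9.07 CPM to 13.9, 12.6 and 13.6 CPM (log2 fold change 0.65, SE 0.098, edgeR adjusted p = 0.000122). All 3 genes were above WT in every cKO library. Eno3, the muscle enolase, had the opposite direction at 13.4, 12.99 and 14.8 CPM in WT and 12.6, 9.71 and 12.7 CPM in cKO. Its groups did not overlap, yet the difference did not pass the threshold (log2 fold change -0.24, SE 0.11, edgeR adjusted p = 0.099). Pgam1 lay between 48.2 and 57.6 CPM and Pkm, the pyruvate kinase, between 1283 and 1402 CPM over all 6 libraries, with log2 fold changes of 0.08 and 0.04 that did not pass the threshold (95% intervals -0.05 to 0.21 and -0.06 to 0.14). The remaining gene, Gapdh, rose from 20.8, 18.6 and 20.7 CPM to 27.6, 22.5 and 24.96 CPM as counted (log2 fold change 0.32, SE 0.086, edgeR adjusted p = 0.00842), and this call was lost without cKO replicate 1 (edgeR adjusted p = 0.0522). The values of Gapdh and Eno1 depend on their sequence copies, which are described further on.

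Pyruvate is turned into lactate or enters the mitochondrion. Ldha, which reduces pyruvate to lactate, was at 995, 1026 and 1042 CPM in WT and 1246, 1128 and 1242 CPM in cKO (log2 fold change 0.24, SE 0.049, edgeR adjusted p = 0.0013). Slc16a3, the exporter MCT4 that releases lactate, was at 146 to 149.9 CPM in WT and 145 to 178 CPM in cKO and did not pass the threshold (log2 fold change 0.16, 95% interval 0.02 to 0.30, edgeR adjusted p = 0.062). Without cKO replicate 2, which was the lowest of all 6 libraries, it did (log2 fold change 0.25, edgeR adjusted p = 0.000216). Pdk1 (chr2:71873224-71903858, plus strand, GRCm38 as all coordinates here) is a kinase that switches off pyruvate dehydrogenase and so keeps pyruvate from becoming acetyl-CoA. Counted without sequence copies, Pdk1 showed the largest change of all 35 genes. It was at 28.4, 30.7 and 30.2 CPM in WT and 72.5, 57.7 and 78.7 CPM in cKO, and even the lowest cKO library was far above the highest WT library (log2 fold change 1.22, SE 0.095, edgeR adjusted p = 3.66e-07).

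The level of fructose 2,6-bisphosphate, the strongest activator of phosphofructokinase, is set by the bifunctional PFKFB enzymes, and the pair measured here moved in opposite directions. Pfkfb3 (chr2:11471433-11554077, minus strand), whose enzyme mostly makes the activator, fell from 65.4, 67.6 and 63.8 CPM to 44.2, 46.7 and 40.1 CPM (log2 fold change -0.58, SE 0.062, edgeR adjusted p = 5.69e-06). Pfkfb4 (chr9:108991778-109032228, plus strand) rose from 9.34, 9.62 and 10.9 CPM to 13.5, 14.4 and 14.7 CPM (log2 fold change 0.51, SE 0.095, edgeR adjusted p = 0.00069). The groups did not overlap for either gene. The cKO library nearest to WT was replicate 2 for Pfkfb3 and replicate 1 for Pfkfb4.

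Because isozymes of 1 step differ in length, their relative levels were compared per kilobase of exon. Each was given as its share in the summed CPM per kilobase of its family in the same library. The length took in all annotated exons of a gene, 8.532 kb for Hk1, 5.969 kb for Hk2 and 13.401 kb for Pfkp. Their longest coding transcripts held 4278, 5513 and 4145 bases, so the shares and their order depend on the length used. Among the hexokinases, Hk2 was the largest by this exon length, at 64.8% ± 1.25 in WT and 55.6% ± 1.11 in cKO (SD, n = 3). Hk1 went from 27.7% ± 0.468 to 33.4% ± 0.314 and Hk3, which is known from myeloid cells, from 6.87% ± 0.725 to 10.4% ± 0.618. Of the phosphofructokinases, Pfkl held 71.9% ± 0.382 in WT and 76.3% ± 1.40 in cKO and Pfkp 14.8% ± 0.272 and 11.5% ± 0.0774, and the share of Pfkm overlapped between the groups. Of the PFKFB enzymes, Pfkfb3 went from 69.8% ± 1.45 to 56.1% ± 3.22 of the family while Pfkfb4 went from 16.4% ± 1.41 to 28.4% ± 1.42, so Pfkfb3 stayed the most abundant in both groups. The shares of Hk1, Hk2, Hk3, Pfkl, Pfkp, Pfkfb3 and Pfkfb4 did not overlap between the groups. These shares carry no test. Other families were nearly those of 1 gene. Aldoa held 99.8% of the aldolases and Ldha 97.6% to 97.7% of the lactate dehydrogenases as group means in both groups. Eno1 held 90.4% ± 0.694 of the enolases in WT and 91.8% ± 0.616 in cKO. Eno1 was counted here without its sequence copies, which held 10.4% of the sum of Eno1 and copies in WT and 1.95% in cKO.

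**Figure D2:**
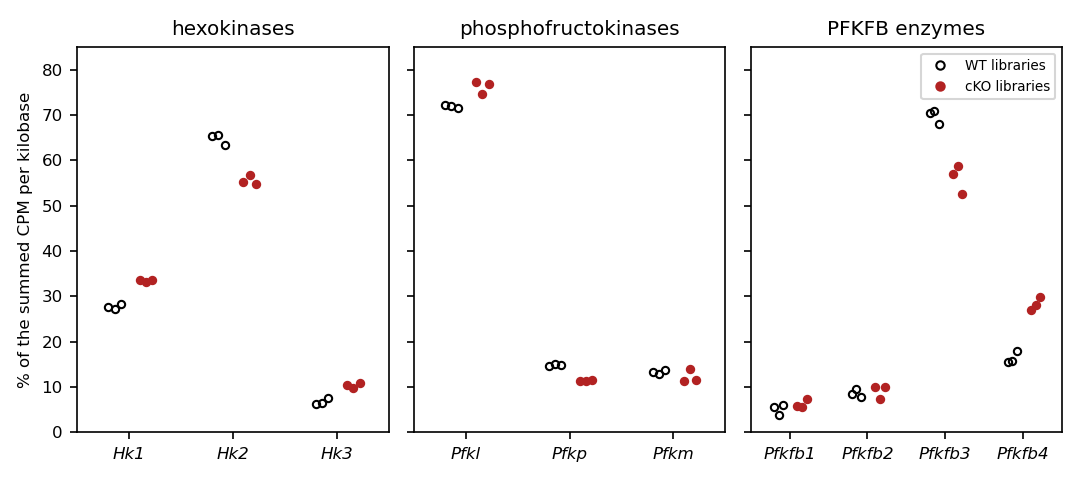
Share of each isozyme in the summed CPM per kilobase of its family (vertical axis, percent) in each library, for hexokinases (the sum is over the whole family, of which the 3 genes named above are drawn), phosphofructokinases and PFKFB enzymes; open points are the 3 WT libraries and filled points the 3 cKO libraries. The cKO points lie below WT for Hk2, Pfkp and Pfkfb3 and above WT for Hk1, Hk3, Pfkl and Pfkfb4.

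Among the HIF subunits and Vhl, all 3 genes changed, in both directions, beside 43.7% of all genes tested. Hif1a (chr12:73901375-73947530, plus strand) was at 625, 642 and 663 CPM in WT and at 559, 530.2 and 577 CPM in cKO, so that every cKO library lay below every WT library (log2 fold change -0.21, SE 0.046, edgeR adjusted p = 0.00205). Epas1 (chr17:86753907-86833410, plus strand), which encodes the other alpha subunit and is best known from endothelium, was at 15.9, 16.3 and 14.9 CPM in WT and 27.8, 19.6 and 24.3 CPM in cKO (log2 fold change 0.60, SE 0.11, edgeR adjusted p = 0.000643). The cKO libraries of Epas1 were spread widely, and replicate 2 was the nearest to WT. Per kilobase, Hif1a made up 97.3% ± 0.200 of the alpha subunits in WT and 95.3% ± 0.623 in cKO, and Epas1 2.64% ± 0.176 and 4.54% ± 0.649 (SD, n = 3). Vhl, the recognition subunit of the ubiquitin ligase that removes the alpha subunits, rose from 28.6, 28.3 and 28.9 CPM to 37.8, 41.3 and 39.7 CPM with no overlap (log2 fold change 0.47, SE 0.061, edgeR adjusted p = 3.68e-05). For Vhl, cKO replicate 2 was the highest library.

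Of the oxygen-sensing prolyl hydroxylases, Egln1 (PHD2), the main one in most cells, was at 56.8, 65.7 and 57.8 CPM in WT and 82.6, 73.95 and 77.8 CPM in cKO (log2 fold change 0.38, SE 0.064, edgeR adjusted p = 0.000348). Egln3 (PHD3), a strongly HIF-inducible one in many cells, was at 10.1 to 13.1 CPM in WT and 10.7 to 11.7 CPM in cKO, a full overlap (log2 fold change -0.03, 95% interval -0.26 to 0.21). Per kilobase, Egln1 held 43.9% ± 2.62 of the 3 hydroxylases in WT and 48.7% ± 1.15 in cKO. Egln2 held a similar share, 44.9% ± 2.49 in WT and 41.9% ± 0.565 in cKO.

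The genes known to respond to low oxygen differed widely in how far they moved. Adm, the vasodilator peptide adrenomedullin, rose from 77.7, 72.4 and 76.7 CPM to 138, 119 and 136 CPM (log2 fold change 0.79, SE 0.06, edgeR adjusted p = 2.9e-07). Vegfa, the angiogenic growth factor and a textbook HIF target, was at 333, 336 and 315 CPM in WT and 314, 367 and 320.1 CPM in cKO. Both ranges overlapped, and the 95% interval of its log2 fold change of 0.02 ran from -0.10 to 0.15. The interval of Adm, 0.66 to 0.92, lay wholly above that of Vegfa.

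Inside the cell, all 4 genes rose, beside 21.9% of all genes tested. Bnip3 (chr7:138890836-138909519, minus strand), a mitochondrial receptor of mitophagy, went from 37.9, 36.5 and 37.3 CPM to 87.6, 68.7 and 91.6 CPM (log2 fold change 1.15, SE 0.089, edgeR adjusted p = 3.45e-07). Ankrd37 (chr8:45996902-46005707, minus strand), a small ankyrin repeat protein, was low, at 1.77, 1.604 and 1.46 CPM in WT and 3.77, 2.81 and 3.92 CPM in cKO (log2 fold change 1.11, SE 0.20, edgeR adjusted p = 0.000568). Its counts were 25 to 67 per library, which shows in its wide interval of 0.67 to 1.54. Ddit4 (REDD1), an inhibitor of mTORC1, rose from 39.7, 34.9 and 37.6 CPM to 58.6, 53.4 and 54.1 CPM (log2 fold change 0.57, SE 0.064, edgeR adjusted p = 1.09e-05). Ndrg1, a stress-responsive cytoplasmic protein, rose from 43.6, 45.3 and 43.03 CPM to 60.8, 59.6 and 60.2 CPM (log2 fold change 0.45, SE 0.052, edgeR adjusted p = 1.27e-05). None of these 4 genes overlapped between the groups, and in Bnip3 and Ankrd37 cKO replicate 2 lay well below the other 2 cKO libraries.

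Of the prolyl hydroxylases of collagen, which stabilize its triple helix and need oxygen to work, P4ha1 and P4ha2 rose as well. The related P4ha3, which is described further on, fell. P4ha2 (chr11:54100095-54131665, plus strand) was at 63.996, 70.1 and 66.04 CPM in WT and 144, 118 and 143 CPM in cKO (log2 fold change 1.01, SE 0.071, edgeR adjusted p = 1.59e-07), and P4ha1 at 359.6, 344 and 379 CPM and 488, 442 and 522 CPM (log2 fold change 0.42, SE 0.059, edgeR adjusted p = 6.69e-05). Both were above WT in every cKO library. Per kilobase, P4ha1 remained the more abundant, at 87.7 CPM per kilobase in WT and 118 in cKO against 10.7 and 21.6 for P4ha2.

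**Figure D3:**
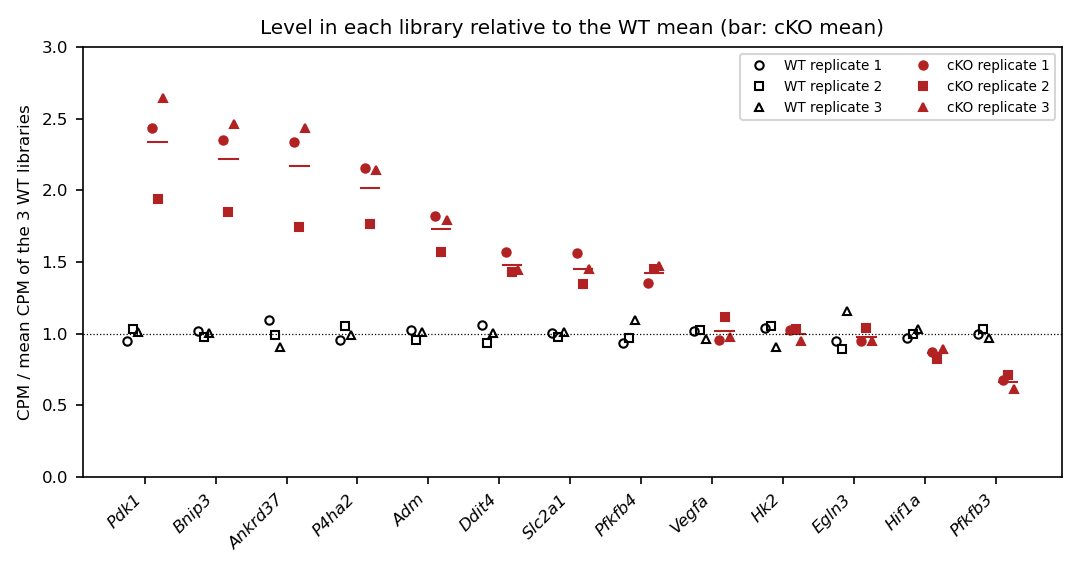
CPM of 13 of the genes in each library divided by the mean CPM of the 3 WT libraries (vertical axis); open symbols are WT and filled symbols cKO libraries, with circles, squares and triangles for replicates 1, 2 and 3, and the bar is the cKO mean. Pdk1, Bnip3, Ankrd37 and P4ha2 lie near or above 2 with replicate 2 (square) lowest, Vegfa, Hk2 and Egln3 overlap with WT, and Hif1a and Pfkfb3 lie below WT.

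Promoter sequence was examined for the core letters of the HIF response element, since HIF binds ACGTG, and also the variant GCGTG, on either strand. RefSeq windows of 250 bases upstream of a start (GRCm38.p6) were found for 33 of the 35 genes, all but Epas1 and Ndrg1. The windows of Ankrd37, Bnip3 and P4ha2 are printed first. These are 3 of the 4 genes that moved by more than 1 on the log2 scale, without Pdk1. The windows of Hk2 and Egln3, which did not pass the threshold, follow for comparison. Each is written along the transcript and ends at the last base before the start, and capitals mark these letters on either strand.
Ankrd37 (chr8:45999851-46000100, minus strand): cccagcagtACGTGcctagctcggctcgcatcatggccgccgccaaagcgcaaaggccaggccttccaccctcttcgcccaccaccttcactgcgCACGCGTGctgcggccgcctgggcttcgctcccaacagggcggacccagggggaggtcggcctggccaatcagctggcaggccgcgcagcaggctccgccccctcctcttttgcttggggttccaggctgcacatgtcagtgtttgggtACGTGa
Bnip3 (chr7:138909507-138909756, minus strand): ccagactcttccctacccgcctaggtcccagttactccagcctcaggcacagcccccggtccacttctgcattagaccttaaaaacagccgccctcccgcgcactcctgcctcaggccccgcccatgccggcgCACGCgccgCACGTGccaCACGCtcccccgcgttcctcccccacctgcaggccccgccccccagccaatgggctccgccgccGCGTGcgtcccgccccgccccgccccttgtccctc
P4ha2 (chr11:54100674-54100923, plus strand): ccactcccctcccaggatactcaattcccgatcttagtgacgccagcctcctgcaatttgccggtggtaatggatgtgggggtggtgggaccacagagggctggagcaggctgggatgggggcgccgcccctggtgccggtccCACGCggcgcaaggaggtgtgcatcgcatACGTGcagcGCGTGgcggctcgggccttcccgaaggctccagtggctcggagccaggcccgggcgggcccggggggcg
Hk2 (chr6:82774455-82774704, minus strand): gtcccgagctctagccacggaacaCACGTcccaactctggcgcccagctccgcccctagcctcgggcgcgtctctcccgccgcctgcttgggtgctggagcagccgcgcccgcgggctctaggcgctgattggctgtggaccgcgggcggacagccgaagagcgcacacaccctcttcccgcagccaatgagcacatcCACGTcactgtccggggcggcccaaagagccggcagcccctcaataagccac
Egln3 (chr12:54203875-54204124, minus strand): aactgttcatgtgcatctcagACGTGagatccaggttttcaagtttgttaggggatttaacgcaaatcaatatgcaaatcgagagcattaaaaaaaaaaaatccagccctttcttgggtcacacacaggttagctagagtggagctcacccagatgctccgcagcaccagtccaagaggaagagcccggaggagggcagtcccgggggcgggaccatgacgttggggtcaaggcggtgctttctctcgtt

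Counted on both strands, so that the palindrome CACGTG counts for 2, the windows held 4 matches in Ankrd37, 5 in Bnip3, 3 in P4ha2, 2 in Hk2 and 1 in Egln3. The windows of Pdk1, not printed, held 1 and 0, and those of Pfkp and Pgam1, which did not pass the threshold, held 3 each. Over all windows, the median was 1.5 matches for genes that were higher. It was 1 for genes that did not pass the threshold and 3 for genes that were lower. At least 1 match was found in 37 of the 47 windows of the 33 genes (78.7%), beside 54.4% of the 13731 windows of genes tested and 38.6% of all 32851 windows. The letters ACGTG alone were in 46.8% of the windows of these genes, beside 20.9% and 16.6%. The windows of the 33 genes had a median GC content of 61.6%, beside 59.6% for genes tested and 52.4% for all. A match did not separate the genes that rose from those that did not: 18 of 22 genes that were higher in cKO had a match in some window, and so did 9 of 9 that did not pass the threshold. These letters are a description of the sequence and not bound sites.

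Gapdh (chr6:125161715-125166467, minus strand), the glyceraldehyde 3-phosphate dehydrogenase, is usually among the most abundant transcripts of a cell, but in this table it ranked 28 of 35 by level per kilobase, at 4.84 CPM per kilobase in WT and 6.05 in cKO, far below Aldoa at 363 and 402. The length used for Gapdh was 4.133 kb over all annotated exons, while its longest coding transcript held 1420 bases, so the rank depends on that choice. Reads that fit several places were not counted, and 82.5% of all 50-base stretches of the Gapdh transcript occur also in another annotated gene. The share was 72.2% for Eno1, 68.0% for Pgk1, 41.5% for Pgam1, 30.5% for Pkm, 21.9% for Bnip3, 19.3% for Gpi1, 16.6% for Ldha, 13.5% for Aldoa and 7.51% for Tpi1, and at most 0.610% for each of the other 25 genes. The labels give no read length for these libraries, and 50 bases, the length of the single reads of the uterine RNA-seq made with another kit, serve as an example. The levels of these 10 genes may therefore be understated, and their fold changes rest on the bases in which they differ from other genes.

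In all, 89 annotated genes, with 95% identity or more along 90% or more of their own length, were copies of 8 of the 35 genes, 75 of them Gapdh and 3 Eno1. The copy of Gapdh with the most counts, the processed pseudogene Gm13394 (chr2:28933610-28934609, minus strand), was at 62.9, 63.4 and 57.4 CPM in WT, above Gapdh itself, and at 0.0562, 0.212 and 0 CPM in cKO, or 1, 4 and 0 counts. A count of 3 corresponded to 0.158 to 0.195 CPM per library when divided by the total counts alone, without the TMM scaling of the printed CPM. Gm13394 differs from the coding sequence of Gapdh by 1 base in the 1000 bases compared, the substitution A346C, counted from 1 at the A of the Gapdh start codon, and 50 of its 951 stretches of 50 bases, those across that base, are found in no other annotated transcript. The 61 bases around it are given for both, with the base that differs in capitals.
Gapdh: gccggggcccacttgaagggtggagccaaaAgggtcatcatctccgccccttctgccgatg
Gm13394 (chr2:28934234-28934294, minus strand): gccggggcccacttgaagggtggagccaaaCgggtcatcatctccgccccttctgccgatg

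Within the annotated length of the copy, reads could be told apart from those of Gapdh by that single base, so the gene was also added up with all its copies. The sum of Gapdh and its 75 copies was 97.6, 93.2 and 89.9 CPM in WT and 40.4, 36.9 and 37.4 CPM in cKO (log2 fold change -1.29, SE 0.056, edgeR adjusted p = 1.79e-09), which is the reverse of the direction of Gapdh alone. Copies made up 78.6% of the sum in WT and 34.7% in cKO. The remaining 74 copies together lay between 11.2 and 14.2 CPM in every library. The direction for Gapdh thus depended on whether the copy was added, and from which of the loci the reads given to Gm13394 came was not tested. The sum holds no read that fits several loci, so it is not the whole of the Gapdh RNA. The labels give no strain for either group, and whether the groups differ in sequence at these loci was not tested.

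The enolase Eno1 (chr4:150236721-150248879, plus strand) showed the same pattern on a smaller scale. Its copy Gm5855 (chr3:130929366-130930670, minus strand, 96.3% identity) was at 38.1, 38.3 and 35.8 CPM in WT and 8.88, 7.11 and 9.07 CPM in cKO (log2 fold change -2.17, SE 0.091, edgeR adjusted p = 1.07e-09), and Eno1b on chromosome 18 (99.5% identity) at 20.6, 20.4 and 18.3 CPM and 2.87, 2.55 and 3.47 CPM (log2 fold change -2.75, SE 0.12, edgeR adjusted p = 1.89e-09). Both fell while Eno1 rose. Added to Eno1, the copies gave 542, 565 and 546 CPM in WT and 612, 559 and 591 CPM in cKO, and the call for Eno1 was lost (log2 fold change 0.09, SE 0.046, edgeR adjusted p = 0.121), because the copies held 10.4% of the sum in WT and 1.95% in cKO. Stretches of 50 bases found in no other annotated transcript made up 15.5% of those of Eno1b (270 of 1742) and 77.2% of those of Gm5855 (970 of 1256).

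**Figure D4:**
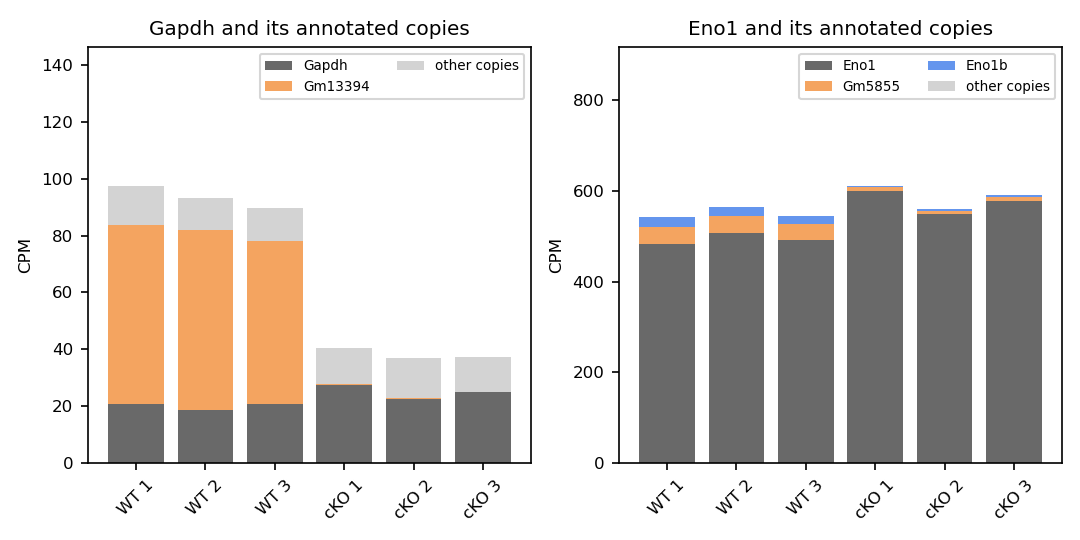
Stacked CPM of Gapdh (left) and Eno1 (right) with their annotated sequence copies in each of the 6 libraries (vertical axes start at 0; segments, the gene and its copies). Gm13394 takes 57.4 to 63.4 CPM in WT and at most 0.212 CPM in cKO, so the Gapdh sum falls while the Gapdh segment itself is higher in cKO; the Eno1 sum overlaps between the groups.

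For the other genes with copies, adding them changed no call. The sum for Bnip3 had a log2 fold change of 1.15, as had Bnip3 alone, and the sums for Pgk1, Ldha, Tpi1, Pgam1 and Pkm had 0.37, 0.24, 0.14, 0.06 and 0.04. The copy of Pkm with the most counts, Gm6560, was at 101, 99.02 and 104 CPM in WT and 112, 103 and 107 CPM in cKO. The copies Tpi-rs11 of Tpi1, Pgam1-ps2 of Pgam1, Gm9247 of Ldha and Gm16439 of Bnip3 were between 0.177 and 7.08 CPM in all libraries, and none of these 5 copies passed the threshold. With every copy summed, 25 of the 35 genes were called, 22 higher and 3 lower.

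Further genes of the same pathways were counted in the same fit. Of 19 other isozymes and regulators of glycolysis that could be tested (of 27 listed), 8 were called (42.1%, near the 43.7% of all genes), with a median log2 fold change of 0.12. The genes that were higher were Hk3 (0.83, SE 0.081), the pyruvate dehydrogenase phosphatase Pdp1 (0.58, SE 0.10), the glucose transporter Slc2a3 (0.54, SE 0.089), the lactate dehydrogenase subunit Ldhb (0.33, SE 0.099) and the mitochondrial pyruvate carrier subunit Mpc2 (0.25, SE 0.081; all log2 fold changes). Lower were Pdk4 (-0.52, SE 0.18), which acts on the same enzyme as Pdk1, the lactate transporter Slc16a1 (-0.32, SE 0.046) and the pyruvate dehydrogenase subunit Pdhb (-0.23, SE 0.063). Pdk1 and Pdk4, both kinases of pyruvate dehydrogenase, thus had opposite signs, although the ranges of Pdk4 overlapped at 10.3 to 13.3 CPM in WT and 6.21 to 11.5 CPM in cKO.

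Of 14 other genes of the HIF pathway, 6 were called (42.9%, near the 43.7% of all genes), 3 higher and 3 lower, and the median log2 fold change was 0.02. The partners of Vhl in its ligase, Elob and Eloc, were slightly higher (0.22, SE 0.065, and 0.14, SE 0.049), as was Siah1a (0.29, SE 0.084), a ubiquitin ligase that acts on the Egln enzymes. The coactivators Ep300 (-0.20, SE 0.062) and Crebbp (-0.18, SE 0.064) were slightly lower, and Cited2, which competes with HIF for these coactivators, fell from 129.6, 114 and 114 CPM to 74.7, 77.9 and 74.8 CPM (log2 fold change -0.65, SE 0.057, edgeR adjusted p = 1.05e-06). Of the 6 genes, Cited2 alone passed an adjusted p under 0.01, which 30.3% of all genes passed. The count of called genes was 2 without WT replicate 2 and 3 without WT replicate 1 or cKO replicate 3. In these fits 5532, 5676 and 5866 genes of the whole table were called, beside 6723 with all libraries.

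Of 29 other hypoxia response genes tested (of 30 listed; Epo had no count in any library), 23 were called (79.3%, beside 43.7% of all genes), 17 higher and 6 lower, beside 21.9% and 21.8% of all genes (median log2 fold change 0.23). The largest increase was that of Car9, a carbonic anhydrase that marks hypoxic cells, from 1.06, 0.962 and 1.41 CPM to 4.499, 2.86 and 3.86 CPM (log2 fold change 1.70, SE 0.24, edgeR adjusted p = 6.48e-05). Also higher were the endoplasmic reticulum oxidase Ero1l (0.87, SE 0.052), Zfp395 (0.79, SE 0.13), Ccng2 (0.77, SE 0.094), Rora (0.73, SE 0.067), Bnip3l (0.71, SE 0.081), the mitophagy relative of Bnip3, and Fam162a (0.65, SE 0.061). The largest decrease was that of P4ha3, the third collagen prolyl hydroxylase subunit, from 111, 113 and 107 CPM to 49.7, 58.4 and 51.5 CPM (log2 fold change -1.05, SE 0.06, edgeR adjusted p = 2.34e-08), opposite to P4ha1 and P4ha2. Car12, Lox, Tfrc and Angptl4 were also lower, with log2 fold changes from -0.62 to -0.17, and were named after their values were seen. The summed level of the list, in which abundant genes weigh most, went down. It was 16712 to 17153 CPM in WT and 14519 to 15487 CPM in cKO, with no overlap.

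**Figure D5:**
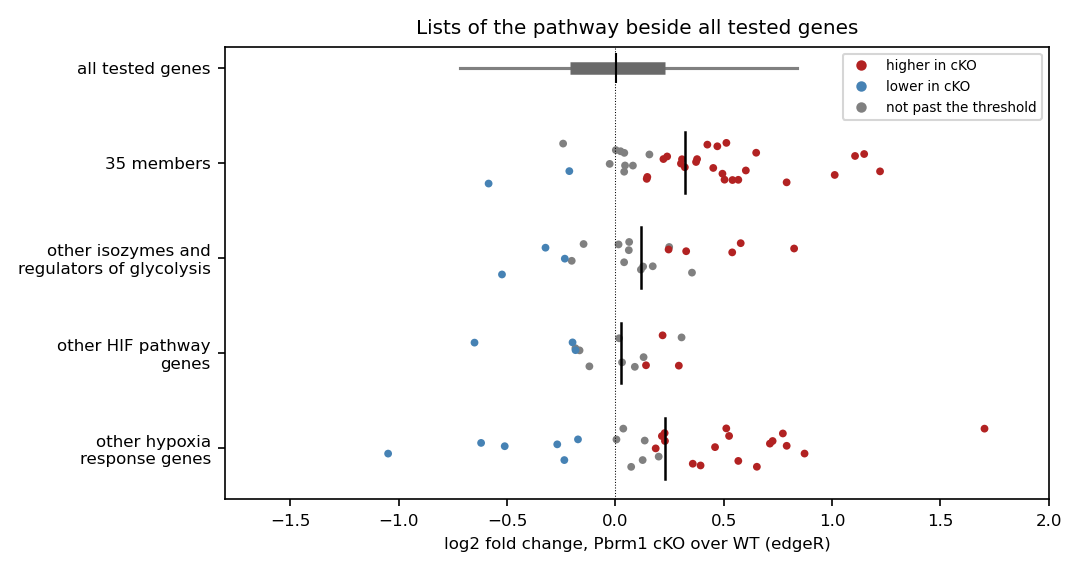
Log2 fold change between Pbrm1 cKO and WT (horizontal axis) of the 35 genes and of 3 lists of other genes of the same pathways (points; red, higher in cKO; blue, lower; grey, not past the threshold; black line, median), beside all 15376 genes tested (black tick, median; thick line, middle 50%; thin line, middle 90%). The medians lie at 0.32, 0.12, 0.02 and 0.23 from the 35 genes down, and at 0.002 for all genes tested.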

How the data were processed

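Smooth muscle cells of the oviduct, 3 libraries each of WT and Pbrm1 cKO, were profiled by RNA-seq. Per the labels, cDNA was primed with random and poly(T) primers, strand-selected, depleted of targeted transcripts and amplified by PCR. The authors deposited 1 table of raw read counts per gene. Per the file headers, these are reads over exons of the GENCODE M18 annotation from featureCounts 1.6.4 in reverse-stranded mode; with the other settings at their defaults, a read that fits more than 1 locus or gene is not counted. The submitters' processing notes name cutadapt, HISAT2 and GRCm38.p5, and the methods of the study describe trimming of low-quality bases and adapters with cutadapt and mapping with HISAT2 at default settings for its RNA-seq. Symbols came from GENCODE M21 (same build) and were found for 99.9% of the 54232 genes. No sample column was left unassigned.

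The 35 genes and the other lists, with the rule for naming genes, were chosen with earlier results of these data known. Every called gene of the 35 is given with its value in each library, the others by range; of each further list, the called genes with the largest changes are named, up to 8, and of sequence copies with at least 1 CPM, the 8 with the most counts.

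Counts were tested with the two-sided quasi-likelihood F-test of edgeR 4.0.16 (R 4.3.3; TMM scaling, low counts removed by filterByExpr). P-values were adjusted by Benjamini-Hochberg over all 15376 genes tested, with a threshold of 0.05. The biological coefficient of variation was 5.32%. On simulated counts of this comparison the test recovered 196 of 200 genes changed by 1 on the log2 scale, among 15172 tested, with 5 false calls. Libraries held 15390818 to 18947947 counts. Divided by these totals alone, without TMM, 3 counts were 0.158 to 0.195 CPM, a limit that covers counting error only. Replicates of a group differed by more than sampling noise. Copies were found with BLAST 2.17.0 among transcripts on the same strand. Promoter windows came from RefSeq. Alternatives were DESeq2 1.42.0, limma-voom (limma 3.58.1), other scalings and filters, a replicate block, an adjusted p under 0.01, summed copies and leaving out each library. Single genes that the counts of a list or family include are in places not reported here.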

Additional observations from a re-analysis of the deposited data

How the results depend on the processing

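Of 525 values of the 35 genes under 15 alternatives each, 496 kept their direction and their side of the threshold, 13 lost the call, 4 gained it and 12 changed sign. The count of the 35 genes called ranged from 23 to 27, and that of all genes called from 5307 to 7054. The changes were limited to 9 genes. Gapdh turned from 0.32 to -1.29 on the log2 scale with its copies summed, and Eno1 lost its call there. Without 1 library, Aldoa ranged from 0.11 to 0.20, Tpi1 from 0.11 to 0.21, Gapdh from 0.24 to 0.40 and Slc16a3 from 0.096 to 0.25. Slc16a3 passed with library size as the only scaling (edgeR adjusted p = 0.0488), with no filter (0.0253), with the replicate block (0.0372) and without cKO replicate 2. Tpi1 also lost its call with upper quartile scaling (edgeR adjusted p = 0.0525).

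The other changes of sign were those of genes near 0 that no alternative called. Hk2 was at -0.0018 with DESeq2, -0.00034 with RLE size factors, -0.0097 with upper quartile scaling and -0.0075 with no filter, and between -0.065 and 0.041 without 1 library. Aldoc ranged from -0.013 to 0.079, Egln3 from -0.10 to 0.088 and Vegfa from -0.046 to 0.068 without 1 library. Under an adjusted p below 0.01, 24 of the 35 genes, 5 of the other isozymes and regulators and 1 of the other HIF pathway genes were called, beside 30.3% of all genes tested (4665 of 15376). Without 1 library, the count for the HIF pathway ranged from 2 to 6, and that for all genes from 5532 to 7054. No scaling moved the median of all genes beyond 0.017. With copies at 98% identity 26 of the 35 genes were called, and with 50% of the copy covered 25. The cause of these changes was not tested beyond what each alternative itself removes or adds.

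Replicate numbers were fitted as a block because both groups carry numbers 1 to 3. Same-numbered libraries did not deviate together (correlations -0.024, 0.035 and 0.093), so the numbers were not taken as pairs. With the block, 27 of the 35 genes and 6908 of all genes were called, 6617 of these also without it, along with 8 of the other isozymes, 6 of the HIF pathway genes and 24 of the other hypoxia response genes.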
